A study of Mus musculus with 8 samples.

Results

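The 10 genes described here are immediate early and AP-1 genes: Egr1, Egr2, Fos, Fosb, Jun, Junb, Jund, Atf3, Klf6 and Ier2. They were taken by symbol from the 37558 genes of the count table, and all 10 were found. They are grouped by known function, and the list was drawn up with the levels of these same 8 libraries in view. Every value below is therefore a description, with no test. Immediate early genes are transcribed within minutes of a signal from transcription factors already present in the cell, such as SRF with its ETS partners and CREB, and many of their mRNAs decay quickly. Proteins of the Jun and Fos families pair through leucine zippers to form AP-1, which binds DNA as a Jun-Jun or a Jun-Fos dimer. In muscle precursors Jun and Fos proteins are known to restrain MyoD, while in neurons immediate early genes follow electrical activity and injury.

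RNA was measured after lentiviral transduction of P19, a mouse embryonal carcinoma line able to form neurons or muscle in culture. The vectors carried GFP, MyoD (a muscle-driving bHLH factor), NeuroD2 (a neuron-driving bHLH factor), or a chimera of MyoD with the bHLH domain of NeuroD2. Mutants of the chimera labelled WC and WCS were also delivered, and the chimera and WCS each had a further culture at a multiplicity of infection (MOI) of 100. Each of these 8 groups was 1 library, and the MOI of the other 6 libraries, the vector's promoter, the changes behind WC and WCS and the time of harvest are not given in the labels. All cultures, GFP included, were moved to a neuronal medium 48 h after infection, and that medium was renewed every 24 h. The time from the last medium change to harvest is not given.

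Library totals ran from 26410500 to 43984066 counts, so 3 counts correspond to 0.073 to 0.115 CPM. Levels are in CPM, read counts scaled to library size with TMM factors, and ratios carry 95% intervals on the 2 counts, which cover counting error only. Statements on neighbours in a gene's order of levels hold for TMM scaling, and other scalings alter some of them. Myod1 was at 0.681 CPM in GFP and 0.804 in NeuroD2 and at 77.3 to 857 CPM in the libraries of MyoD, the chimera and its mutants, and Neurod2 was at 180 CPM in NeuroD2, 2.5 in GFP, 0 in MyoD and 13.8 to 130 CPM with the chimera and its mutants. Pou5f1, Sox2 and Lin28a, markers of embryonal carcinoma cells, were detected in every library. The 6 markers of this kind summed to 409 to 2771 CPM, highest in GFP. The 6 skeletal muscle markers summed to 9395 CPM in MyoD, 731 in the chimera and 1099 in the chimera at MOI 100, whereas the remaining 5 libraries had 13.1 to 58.3 CPM. Most of the MyoD sum was Actc1 at 5163 and Myh3 at 3060 CPM. Ckm, of the same list, was at 5.26 CPM in MyoD and 0.219 in GFP. It stayed low in the chimera at 0.301 CPM and in the chimera at MOI 100 at 0.347. The 6 neuron markers summed to 220 to 3626 CPM, lowest in MyoD and highest in WCS at MOI 100. Of the fibroblast markers Lum was under 1 CPM in every library, as were the endothelial markers Pecam1, Cdh5 and Tie1 and the macrophage markers Ptprc and Aif1, with sums of 26.5 to 117, 1.22 to 2.38 and 12.2 to 17.8 CPM for those 3 lists. Col1a2 nonetheless reached 103 CPM in WC, Pdgfra 49.1 in the chimera against 4.69 in GFP and Col3a1 18.7 in WCS at MOI 100. Csf1r stood at 9.76 to 12.7 CPM and Kdr at 0.413 to 1.7 CPM. The part of such cells in the levels below was not tested. In such bulk libraries, fewer cells of a type and less RNA per cell cannot be told apart. Of the 10 genes, 6 reached 5 CPM in a library. Egr2, Fos, Fosb and Junb did not, and their ratios rest on few counts.

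**Figure D1:**
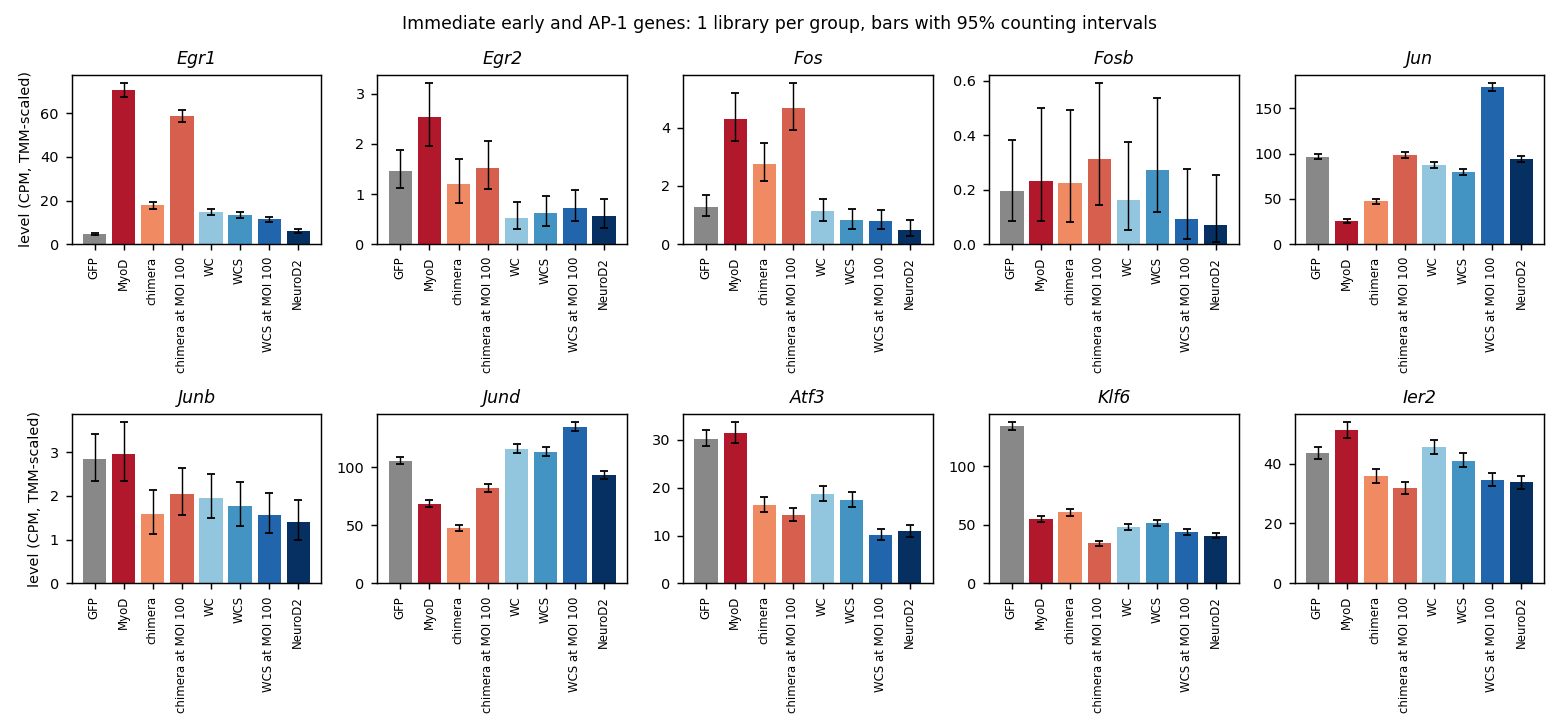
Level of each of the 10 genes (CPM after TMM scaling, linear axes that start at 0) in the 8 libraries, 1 per group, with bars for the level and error bars for the 95% counting interval. Egr1 reached 70.8 CPM in MyoD and 58.6 CPM in the chimera at MOI 100, Jun was lowest in MyoD at 25.2 CPM, and Klf6 was highest in GFP at 134 CPM.

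Egr1 varied most. It encodes a zinc-finger transcription factor induced through SRF and ETS factors by ERK signalling. Its level was 4.62 CPM in GFP, 5.83 in NeuroD2, 11.3 in WCS at MOI 100, 13.2 in WCS, 14.6 in WC, 17.7 in the chimera, 58.6 in the chimera at MOI 100 and 70.8 in MyoD. Of the 7 pairs of neighbours in this order, WC and WCS alone did not differ beyond counting error with TMM scaling. MyoD and both chimera libraries were thus the highest, though the chimera without the MOI label was 1.22-fold above WC (1.07 to 1.39). GFP and NeuroD2 were the lowest. Against GFP, Egr1 was 15.3-fold higher in MyoD (13.2 to 17.9), 12.7-fold in the chimera at MOI 100 (10.9 to 14.8), 3.84-fold in the chimera (3.24 to 4.57), and 3.15-fold in WC (2.66 to 3.76). In WCS it was 2.87-fold above GFP (2.4 to 3.43), and in WCS at MOI 100 2.45-fold (2.05 to 2.94). NeuroD2 was 1.26-fold above GFP (1.02 to 1.56). MyoD and NeuroD2, set against each other without GFP, were 12.1-fold apart (10.4 to 14.3).

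With the MOI 100 label the chimera and WCS lay further apart in Egr1. In the chimera the library at MOI 100 held 3.3-fold more Egr1 (2.98 to 3.66), and in WCS it held 1.17-fold less (1.01 to 1.35). The WCS difference was within counting error with DESeq2 size factors (ratio 0.879, 0.76 to 1.02) and with total gene counts (0.938, 0.811 to 1.09). At MOI 100 Egr1 was 5.16-fold lower in WCS than in the chimera (4.61 to 5.8), against 1.34-fold without that label (1.17 to 1.54). Myod1 had another order. Its counts do not separate the vector's transcript from the cell's own, and it was highest in WCS at MOI 100 at 857 CPM, against 555 CPM in the chimera at MOI 100 and 296 CPM in MyoD. Myog, the muscle factor myogenin, stood at 95.1 CPM in MyoD, 58.2 in the chimera and 197 in the chimera at MOI 100, and at 0.175 CPM or less in the other 5. The part of muscle differentiation in the Egr1 level was not tested.

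Egr2, a related zinc-finger factor known from hindbrain and Schwann cell development, stayed low. It stood at 2.53 CPM in MyoD, 1.53 in the chimera at MOI 100, 1.46 in GFP and 1.21 in the chimera, while WC, WCS, WCS at MOI 100 and NeuroD2 had 0.514 to 0.721 CPM. Only MyoD and the chimera at MOI 100, at the top of the order, differed beyond counting error among neighbours. MyoD held 4.53-fold more Egr2 than NeuroD2 (2.6 to 8.39) and 1.74-fold more than GFP (1.21 to 2.51). All of these levels rest on 16 to 66 counts.

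**Figure D2:**
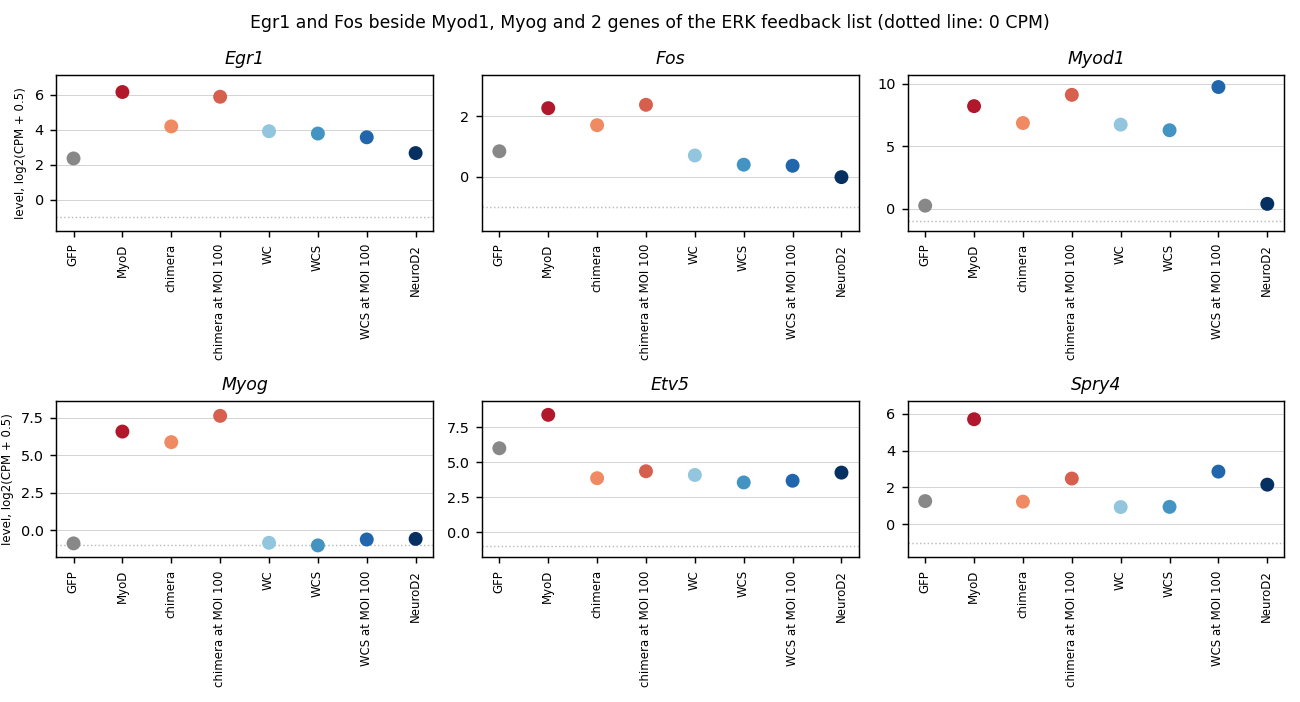
Levels of Egr1 and Fos beside Myod1, Myog, Etv5 and Spry4 in the 8 libraries, 1 point per library, on a log2(CPM + 0.5) axis with a dotted line at 0 CPM. Egr1, Fos and Myog share their 3 highest libraries, whereas Myod1 is highest in WCS at MOI 100 at 857 CPM and Etv5 and Spry4 are highest in MyoD, at 333 and 51.8 CPM.

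Fos, a partner in the Jun-Fos dimers of AP-1, had the same 3 libraries on top at a far lower level. It stood at 4.69 CPM in the chimera at MOI 100, 4.3 in MyoD and 2.75 in the chimera, then at 1.29 in GFP, 1.12 in WC, 0.815 in WCS, 0.783 in WCS at MOI 100 and 0.489 in NeuroD2. The chimera at MOI 100 and MyoD did not differ beyond counting error, and neither did the neighbours from GFP down to NeuroD2. Fos was 3.34-fold higher in MyoD than in GFP (2.39 to 4.72), 3.63-fold higher in the chimera at MOI 100 (2.63 to 5.09) and 2.13-fold higher in the chimera (1.48 to 3.1). NeuroD2 was 2.64-fold below GFP (1.44 to 5.14). Fos was lower in the mutants than in the chimera with and without the MOI label. WCS was 3.37-fold below the chimera (2.1 to 5.6), and 5.98-fold below it at MOI 100 (3.88 to 9.57). WC was 2.45-fold below the chimera (1.62 to 3.78). Across the 8 libraries Egr1 and Fos had a Pearson r of 0.86 and a Spearman rho of 0.74 on the log2(CPM + 0.5) scale, and r was 0.46 without the MyoD and chimera MOI 100 libraries, so the relation rests largely on those. Fosb, another Fos family gene, was at 0.0699 to 0.312 CPM with 2 to 9 counts, and none of its neighbours in the order differed beyond counting error.

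An E-box is the kind of site that bHLH factors bind. As an example of a promoter that holds one, picked with the levels known, the 250 bases before the start site of Fos are shown. They lie at chr12:85473640-85473889 on the plus strand (RefSeq, GRCm38.p6). Capitals mark every match found on either strand.
Fos: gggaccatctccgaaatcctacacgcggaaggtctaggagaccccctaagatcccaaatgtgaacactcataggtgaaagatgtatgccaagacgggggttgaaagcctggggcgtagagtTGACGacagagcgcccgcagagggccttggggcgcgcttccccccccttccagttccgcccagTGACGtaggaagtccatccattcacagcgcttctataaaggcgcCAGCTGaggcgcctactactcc
The match nearest the start site is CAGCTG, beginning 22 bases before it, an E-box form bound by both MyoD and NeuroD2. The other matches are TGACG, beginning 66 and 129 bases before it, the core of a CRE, the site of CREB and ATF proteins. The motifs searched on both strands in the whole RefSeq windows, which run from 250 bases before the start to 50 after, were the E-box CAGCTG that both factors use, the MyoD-preferred E-box CAGGTG and the NeuroD2-preferred E-box CAGATG. Also searched were the AP-1 site TGACTCA, the full CRE with letters TGACGTCA, the Jun promoter element TGACATCA, the CRE core TGACG, which the full CRE contains, and the CArG box of SRF. Of 32851 windows, CAGCTG was in 16.3%, CAGGTG in 20.2%, CAGATG in 17.2%, TGACTCA in 5.2%, TGACGTCA in 1.79%, TGACATCA in 3.62%, TGACG in 20.8% and the CArG box in 1.63%. Windows were found for 8 of the 10 genes, all but Egr1 and Ier2. Junb holds CAGCTG beginning 16 bases before its start, Jund holds it at 173 bases and CAGATG at 197, Fosb holds CAGGTG at 146 and 153 bases, and Atf3 holds CAGATG at 227 bases. TGACG was also found in Atf3 at 7 bases, Fosb at 60 and Junb at 106, and in 3 of the Egr2 windows. Egr2 holds a CArG box in 4 of its 5 windows. The 3 windows with TGACG overlap, and they hold the same TGACG sites and the same CArG box. Bases outside the windows were not searched, so a gene without a match in its window can still have the site farther off. A match is a description of the letters and not evidence of binding, and the part of any match in the levels was not tested.

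In MyoD, the library with the most Egr1, Jun was lowest. It encodes the founding subunit of AP-1, and it stood at 25.2 CPM in MyoD, 47.2 in the chimera, 79.7 in WCS, 87 in WC, 94.2 in NeuroD2, 96.7 in GFP, 98.4 in the chimera at MOI 100 and 174 in WCS at MOI 100. NeuroD2 and GFP, and GFP and the chimera at MOI 100, did not differ beyond counting error, while the other 5 pairs of neighbours did. Jun was 3.73-fold lower in MyoD than in NeuroD2 (3.43 to 4.07) and 2.05-fold lower in the chimera than in GFP (1.92 to 2.19). WCS at MOI 100 was 1.8-fold above GFP (1.72 to 1.87). The MOI 100 label went with more Jun in both constructs, 2.09-fold in the chimera (1.95 to 2.23) and 2.18-fold in WCS (2.08 to 2.29). WCS was above the chimera by 1.69-fold without the label (1.58 to 1.81) and by 1.77-fold at MOI 100 (1.69 to 1.85). Against MyoD, the chimera at MOI 100 was close in Egr1 and far in Jun. Its Egr1 was 1.21-fold below MyoD (1.13 to 1.29), and its Jun 3.9-fold above (3.58 to 4.25).

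The Jun promoter is shown because it is known to be driven by its own product through a TGACATCA element that Jun and ATF2 bind. The 250 bases lie at chr4:95052223-95052472 on the minus strand, and those of Klf6, which carries the same letters, at chr13:5861239-5861488 on the plus strand (RefSeq, GRCm38.p6). Capitals mark the motif matches.
Jun: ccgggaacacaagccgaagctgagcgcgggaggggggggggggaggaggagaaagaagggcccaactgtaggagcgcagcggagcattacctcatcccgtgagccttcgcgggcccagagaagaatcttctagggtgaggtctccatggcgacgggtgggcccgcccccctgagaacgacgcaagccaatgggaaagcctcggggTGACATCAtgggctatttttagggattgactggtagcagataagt
Klf6: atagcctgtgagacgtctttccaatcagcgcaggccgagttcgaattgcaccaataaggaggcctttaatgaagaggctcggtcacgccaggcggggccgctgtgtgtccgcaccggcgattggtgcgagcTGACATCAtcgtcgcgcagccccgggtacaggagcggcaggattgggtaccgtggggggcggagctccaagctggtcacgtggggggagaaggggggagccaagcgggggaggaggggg
The single match of Jun is TGACATCA, beginning 45 bases before the start site, and that of Klf6 is TGACATCA at 119 bases. Neither window holds any of the 3 E-box forms searched.

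Jund, the Jun family member that restrains proliferation, differed less. It stood at 106 CPM in GFP, 68.5 in MyoD, 47.9 in the chimera, 82.2 in the chimera at MOI 100, 116 in WC, 113 in WCS, 135 in WCS at MOI 100 and 93 in NeuroD2. The chimera was lowest and WCS at MOI 100 highest, and WC and WCS alone among neighbours did not differ beyond counting error. Jund was 2.42-fold higher in WC than in the chimera (2.27 to 2.58). WCS stood 2.36-fold above the chimera (2.21 to 2.52). Jund was 1.64-fold higher in WCS at MOI 100 than in the chimera at MOI 100 (1.56 to 1.73). Junb, known to oppose Jun and to sustain muscle mass, was at 1.4 to 2.96 CPM with 40 to 117 counts. Its highest levels were in MyoD and GFP, which did not differ from each other beyond counting error.

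The strand setting of the counting is not given, and 3 genes lie on the opposite strand over part of a Jun family gene. Junos overlaps Jun by 689 bases and had 3.46 to 19.3 CPM, Gm11175 overlaps Jund by 919 bases and had 18.9 to 53.2 CPM, and Prdx2 overlaps Junb by 351 bases and had 192 to 398 CPM. The table counts each of these genes separately. If strand was not used, reads within the overlaps cannot be assigned to either gene of a pair.

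Per length of exon, the 5 AP-1 subunit genes were nearly all Jun and Jund. In CPM per kilobase, Jund ran from 28.7 in the chimera to 80.9 in WCS at MOI 100 and Jun from 7.91 in MyoD to 54.5 in WCS at MOI 100. Junb stayed at 0.607 to 1.28, Fos at 0.208 to 1.99 and Fosb at 0.0112 to 0.05. The share of Fos and Fosb in the sum of the 5 was 3.58% in MyoD, 2.66% in the chimera and 2.46% in the chimera at MOI 100, against 0.254% to 0.606% in the other 5. Fosl1 and Fosl2, also Fos family genes, are not in this sum, so the share is not that of the whole family. Fosl2 stood at 11.9 CPM in GFP and 4.15 in MyoD, where Fos had 1.29 and 4.3 CPM. The sum itself was lowest in the chimera at 45.4 and in MyoD at 52.2, and highest in WCS at MOI 100 at 136. The ratio of Jun to Jund per length was 0.193 in MyoD and 0.368 to 0.674 elsewhere. Exon lengths came from an annotation of another build than the authors', so these levels are approximate.

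**Figure D3:**
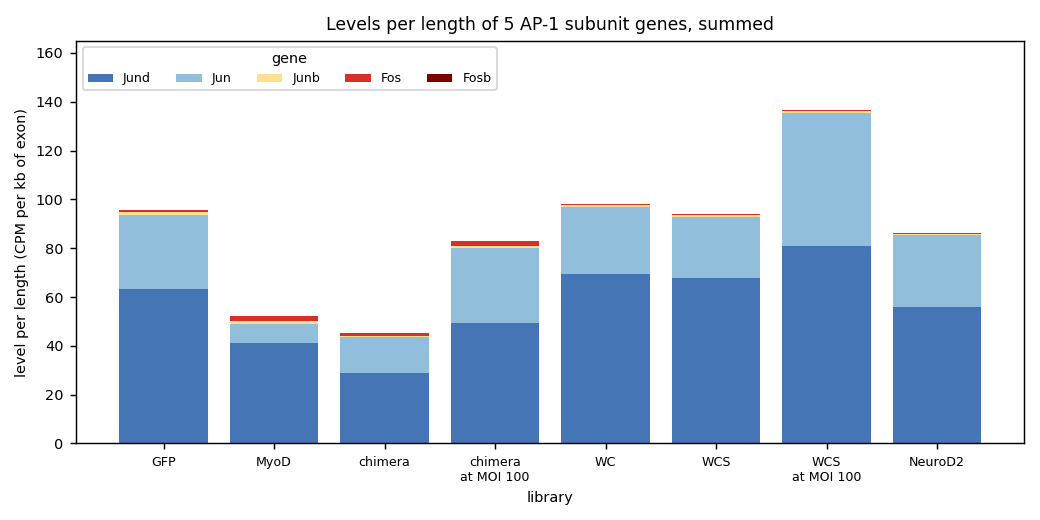
Stacked levels per length (CPM per kilobase of exon) of Jund, Jun, Junb, Fos and Fosb in each library, bars starting at 0. The sum ran from 45.4 in the chimera to 136 in WCS at MOI 100, and the Fos segments are widest in MyoD and both chimera libraries, at 2.46% to 3.58% of the sum.

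Klf6, a zinc-finger factor induced by injury and growth factors, was lower in every library than in GFP. It stood at 134 CPM in GFP, 60.7 in the chimera, 55 in MyoD, 51.7 in WCS, 48.2 in WC, 43.7 in WCS at MOI 100, 40.7 in NeuroD2 and 34.2 in the chimera at MOI 100. GFP thus stood apart, and MyoD and WCS, WCS and WC, and WCS at MOI 100 and NeuroD2 did not differ beyond counting error. The ratio to GFP was between 2.21-fold lower in the chimera (2.09 to 2.34) and 3.93-fold lower in the chimera at MOI 100 (3.67 to 4.21). It was 2.44-fold lower in MyoD (2.31 to 2.59) and 3.3-fold lower in NeuroD2 (3.1 to 3.52), below GFP under the muscle and the neuron factor alike. These 7 ratios share 1 GFP library.

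Atf3, a stress-induced bZIP factor that pairs with Jun proteins, was highest in MyoD at 31.5 CPM and GFP at 30.3 CPM. It stood at 18.7 CPM in WC, 17.5 in WCS, 16.4 in the chimera, 14.4 in the chimera at MOI 100, 10.9 in NeuroD2 and 10.2 in WCS at MOI 100. MyoD and GFP did not differ beyond counting error, nor did NeuroD2 and WCS at MOI 100 at the low end. Atf3 was 2.88-fold higher in MyoD than in NeuroD2 (2.53 to 3.29) and 2.77-fold lower in NeuroD2 than in GFP (2.44 to 3.14). Ier2, a small nuclear protein of the early response, was the flattest of the 6 genes that reached 5 CPM, from 31.7 CPM in the chimera at MOI 100 to 51.1 in MyoD, with GFP at 43.6. Both genes were higher in each of GFP, MyoD, WC and WCS than in each of the other 4 libraries, but for Atf3 the closest pair across that line, WCS and the chimera, did not differ beyond counting error (1.07-fold, 0.938 to 1.22). Rn7s6, a 7S RNA gene, splits the libraries in the same way, at 13 to 16.3 CPM against 0.565 to 1.28 CPM. Of 12817 genes at 5 CPM or more in a library, 8.24% were higher without overlap along that split, as were 2 of the 6 members at that level. RNA was extracted with RNeasy or Trizol, and which library had which is not given, so the part of extraction was not tested.

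**Figure D4:**
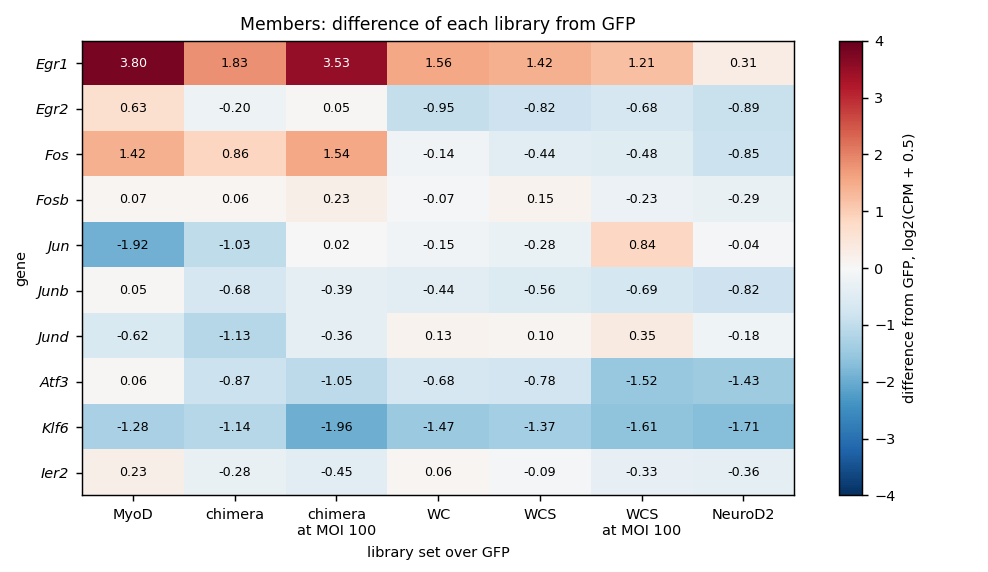
Difference of each of 7 libraries from the GFP library for the 10 genes, on the log2(CPM + 0.5) scale, with the value printed in each cell. Egr1 is above GFP in all 7 columns and Klf6 below it in all 7, while Jun runs from -1.92 in MyoD to 0.84 in WCS at MOI 100.

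The genes were then counted where they differed by 2-fold or more on the log2(CPM + 0.5) scale and the library with more held 5 CPM or above, and set beside the share of all genes past the same limits. In each comparison 6 of the 10 genes reached 5 CPM. In MyoD over GFP 1 was higher (Egr1) and 2 lower (Jun and Klf6), where 9.31% of all genes were higher and 6.86% lower. In NeuroD2 over GFP 0 were higher and 2 lower (Atf3 and Klf6), against 14.7% and 8.82%. In the chimera over GFP 1 was higher (Egr1) and 3 lower (Jun, Jund and Klf6), against 7.81% and 5.43%, and with total gene counts 2 were lower, without Jun. In both WC and WCS over GFP Egr1 was higher and Klf6 lower, against 9.8% and 4.82% of all genes in WC and 9.84% and 5.73% in WCS. At MOI 100 both the chimera and WCS had Egr1 higher and Atf3 and Klf6 lower than GFP, against 16.5% and 11.9% in the chimera and 17.8% and 15.2% in WCS. Medians over the 6 against GFP were -0.28 in MyoD, -0.27 in NeuroD2, -0.95 in the chimera, -0.04 in WC, -0.18 in WCS, -0.41 in the chimera at MOI 100 and 0.01 in WCS at MOI 100. Over all genes tested the medians lay between -0.02 and 0.01. Because the list was chosen with these values known, nothing is read from these counts.

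Comparisons without GFP gave the following. In MyoD over NeuroD2 2 were higher (Egr1 and Atf3) and 1 lower (Jun), where 8.41% and 12.3% of all genes were. In WC over the chimera and in WCS over the chimera 1 was higher (Jund) and 0 lower, against 3.42% and 2.15% in WC and 3.86% and 2.75% in WCS. At MOI 100 WCS over the chimera had 0 higher and 1 lower (Egr1), against 4.19% and 4.3%. For the MOI 100 label, 2 were higher in the chimera (Egr1 and Jun) and 1 in WCS (Jun), with 0 lower in either, against 6.6% higher and 2.79% lower in the chimera and 6.5% and 5.15% in WCS. WC and WCS had 0 of the genes apart, against 0.129% higher and 0.0172% lower over all genes.

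Other immediate early genes did not share one direction. Of 29 listed, 19 reached 5 CPM in a library, and 18 did so in MyoD over GFP, with 2 at least 2-fold higher, 7 lower and a median of -0.70 against -0.02 over all genes, of which 9.31% were higher and 6.86% lower. In NeuroD2 over GFP 3 of 19 were higher and 8 lower, against 14.7% and 8.82% of all genes. In the chimera at MOI 100 over GFP 2 of 18 were higher and 8 lower, against 16.5% and 11.9%. Ccn1, a matrix-associated target of SRF and YAP, stood at 263 CPM in GFP, with 5.2 to 31 CPM elsewhere, 12.8-fold lower in MyoD (11.8 to 14) and 29.3-fold in NeuroD2 (25.9 to 33.2). Gadd45b, a stress and growth-arrest gene, was at 83.6 CPM in GFP and 1.32 to 8.56 CPM elsewhere. Plk3, a stress-responsive kinase, was higher than GFP instead, at 10.6 CPM in GFP, 54.6 in MyoD, 58.5 in NeuroD2 and 142 in the chimera at MOI 100. The GFP library is 1 library shared by all of these ratios, and genes that stand apart in it and genes that differ with every construct cannot be told apart.

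**Figure D5:**
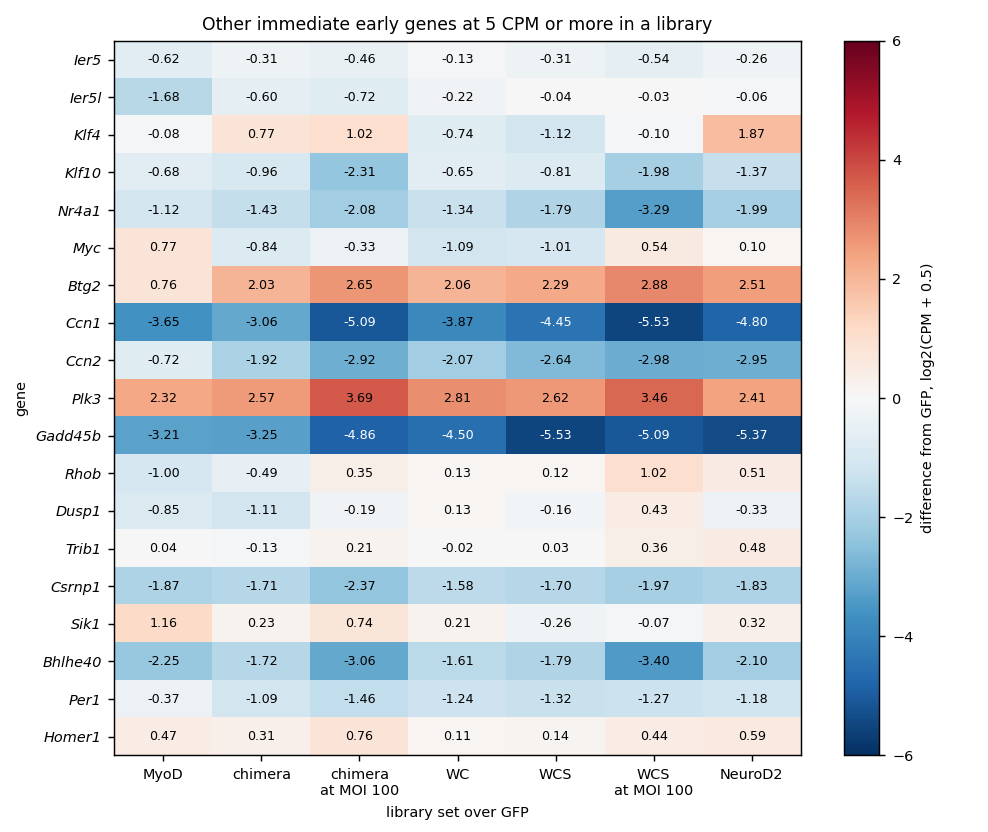
Difference of each of 7 libraries from the GFP library for the 19 other immediate early genes that reached 5 CPM in a library, on the log2(CPM + 0.5) scale. Ccn1 runs from -5.53 to -3.06 and Gadd45b from -5.53 to -3.21 over the 7 columns, while Plk3 runs from 2.32 to 3.69.

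The ERK feedback list holds phosphatases, Sprouty proteins and ETV factors that ERK signalling is known to induce, and it was highest over GFP in MyoD. Of 12 genes at 5 CPM, 7 were at least 2-fold higher than in GFP and 0 lower, with a median of 1.66, where 9.31% of all genes were higher and 6.86% lower. In the chimera at MOI 100, 2 of 11 were higher (Spry4 and Phlda1) and 2 lower (Dusp5 and Etv5), with a median of 0.06, where 16.5% of all genes were higher and 11.9% lower. Spry4, an inhibitor of receptor tyrosine kinase signalling, stood at 51.8 CPM in MyoD, 6.77 in WCS at MOI 100, 5.1 in the chimera at MOI 100, 3.95 in NeuroD2, 1.9 in GFP and 1.41 to 1.85 CPM in the other 3, and was 27.3-fold higher in MyoD than in GFP (21.7 to 34.7). Etv5, an ETS factor downstream of FGF, stood at 333 CPM in MyoD, 63.3 in GFP and 11.2 to 20 CPM in the other 6. Etv4, its relative, stood at 24.3 CPM in MyoD, 3.21 in GFP and 0.377 to 2.41 CPM elsewhere.

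Of the 10 SRF, ETS-partner, CREB and NAB regulators, 2 were at least 2-fold higher in MyoD than in GFP and 0 lower, against the same 9.31% and 6.86%. Srf, which encodes serum response factor, stood at 152 CPM in GFP, 129 in MyoD, 79.1 in the chimera at MOI 100, 55.5 in NeuroD2 and 48.4 in WCS at MOI 100. Nab1, a corepressor of EGR proteins, stood at 54 and 55.7 CPM in the chimera and WCS at MOI 100 and at 11.2 to 24.9 CPM in the other 6, so its order was not that of Egr1. Mrtfb, an SRF coactivator, was 2.47-fold above GFP in MyoD (2.19 to 2.8) and 2.57-fold in NeuroD2 (2.28 to 2.9). Of 11 genes of the ATF4 and stress list, 6 were at least 2-fold higher in MyoD than in GFP and 0 lower. The median over the 11 was 1.06, where 9.31% of all genes were higher and 6.86% lower. In NeuroD2 over GFP 2 were higher and 0 lower, with a median of 0.19, against 14.7% and 8.82% of all genes. Trib3, a target of ATF4, stood at 132 CPM in MyoD against 37.2 in GFP, and Chac1 at 124 against 38.6. Gadd45a, of the same list, was instead highest in the chimera at MOI 100, at 133 CPM. Of the 12 other AP-1 and related bZIP genes found, 7 reached 5 CPM. In MyoD over GFP 1 of the 7 was higher and 1 lower by 2-fold, against 9.31% and 6.86% of all genes. Fosl2, a Fos family gene, was at 11.9 CPM in GFP and 2.1 to 6.39 CPM elsewhere, highest in GFP where Fos was highest in the chimera at MOI 100. Maff, a small Maf protein, was at 16.5 CPM in GFP and 3.75 to 8.49 elsewhere, and Jdp2, a repressor that pairs with Jun, was highest in MyoD at 37.9 CPM.

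The genes whose pattern over the 8 libraries was most like that of Egr1, Jun and Klf6, the 3 widest-ranging of the 6 members that reached 5 CPM, were found among 5642 genes by Pearson r on log2(CPM + 0.5). All libraries enter each r, so depth and scaling are shared. Nearest to Egr1 were Sh2b3 (r = 0.98, rho = 0.93), Peg10 (0.97, with a rho of 1), Nes, the progenitor filament nestin (0.97, 0.98), Hip1 (0.96, with a rho of 1) and Megf10, a receptor of muscle satellite cells (0.96, with a rho of 1). Without MyoD and the chimera at MOI 100, the libraries farthest from the Egr1 median, r was 0.844 to 0.996. Peg10, an imprinted gene derived from a retrotransposon, ordered the 8 libraries exactly as Egr1 did, from 348 CPM in GFP to 3509 in MyoD. In Egr1 itself, WC and WCS did not differ beyond counting error with any scaling. Nor did WCS and WCS at MOI 100 with DESeq2 size factors or total gene counts, so those steps of the order are not settled. All genes named here as nearest were picked for a high r among 5642, so a high r or rho follows largely from that choice. Nearest to Jun were Junos (r = 0.99, rho = 0.98), Exoc6b, Cnih2, Micu3 and Tcta (0.98 to 0.99), and r was 0.92 to 0.99 without MyoD and WCS at MOI 100. Junos is the antisense gene that overlaps Jun, with the limit on strand given above. Nearest to Klf6 were Slc1a6, E4f1, Aspg, Pgm2 and Prss23os (0.98), and without GFP and the chimera at MOI 100 r was 0.73 to 0.94.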

How the data were processed

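For 8 poly(A)-selected libraries the authors deposited unnormalized read counts by Ensembl gene. CASAVA 1.8.2, TopHat2 2.0.8 and the mm9 build are named in the submitters' processing notes. The sources used here do not give the counter, its annotation or its strand setting. Transcripts without a poly(A) tail are under-represented, and isoforms of a gene are summed.

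Symbols were matched by Ensembl identifier for 32850 genes (87.5%) with a gene name table, and exon lengths and overlaps came from GENCODE M21 (GRCm38). CPM used TMM factors over the 8 libraries (edgeR 4.0.16). Intervals are exact conditional binomial (Clopper-Pearson) at 95% for ratios and exact Poisson for levels. With 1 library a group there is no replicate check and no test was made. A gene counted as apart at 2-fold on log2(CPM + 0.5) with 5 CPM in the higher library. The members and lists were chosen with earlier results of these data known. Named genes were all members, the 3 widest-ranging genes of each other list and the 5 genes most like each of 3 members, skipping unnamed gene models. Rn7s6, the genes that overlap members and the list genes named beyond this rule were picked after their values were seen. Results were re-derived with total gene counts or the size factors of DESeq2 1.42.0 as scaling, a 2 CPM pseudocount, no minimum level, and a threshold of 4-fold. The 2-fold call and the ratio intervals were run on simulated counts with counting error only. The other steps were not simulated. Software was matplotlib 3.10.9, scipy 1.17.1, pandas 2.3.3 and numpy 2.4.6 under Python 3.11.15, and R 4.3.3.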

Additional observations from a re-analysis of the deposited data

Results flagged for a closer look

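Egr1 is listed because, with TMM scaling, the MOI 100 label went with opposite directions in the 2 constructs. The library at MOI 100 held 3.3 times the Egr1 level of the library without the label in the chimera and 0.856 times in WCS. Klf6 is listed because WCS over the chimera was 0.851 without the MOI 100 label and 1.28 at MOI 100. The Egr1 ratio in WCS has an interval of 0.74 to 0.991, and it includes 1 with DESeq2 size factors (0.76 to 1.02) and with total gene counts (0.811 to 1.09), so an opposite direction is not shown there. The Klf6 intervals exclude 1 under all 3 scalings. Each ratio compares 1 library with 1 library, intervals cover counting error only, and the difference between the ratios was not tested.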

How the results depend on the processing

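No paired analysis was possible because each group had 1 library, and for the same reason no library could be left out. Of 28 counts of genes apart (14 comparisons, each direction), re-derived under 5 alternatives, 114 of 140 values stayed within 1.5 times. Counts of 0 that stayed 0 are among these, as is a 3 that became 2, so this share says little on stability. DESeq2 size factors moved none of the 28. With total gene counts, which shift the median of all genes by -0.14 to 0.21 on the log2 scale, the chimera at MOI 100 over GFP had 1 gene lower (Klf6) and WCS at MOI 100 over GFP had 2 higher (Egr1 and Jun), and the chimera over GFP had 2 lower, without Jun. With a pseudocount of 2 CPM the chimera at MOI 100 over GFP had 1 lower (Klf6). With no minimum level Fos joined Egr1, which gave 2 higher in MyoD and in the chimera at MOI 100 over GFP and 2 lower in WCS over the chimera at MOI 100. It likewise gave 4 higher in MyoD over NeuroD2 (Egr1, Egr2, Fos and Atf3) and 1 lower (Fos) in each mutant over the chimera without the MOI label. At a 4-fold threshold Egr1 remained in MyoD over GFP, MyoD over NeuroD2 (1 higher) and the chimera at MOI 100 over GFP, and was 1 lower in WCS over the chimera at MOI 100. That threshold left 0 in every other count that had been above 0: lower in all 7 libraries over GFP and in MyoD over NeuroD2, higher in the chimera, WC, WCS and WCS at MOI 100 over GFP, in WC and WCS over the chimera, and in both comparisons of MOI. A stricter threshold leaves fewer genes by construction. Of 70 log2 ratios over GFP none past 2-fold changed sign, but shifts of this size and a pseudocount could not reverse such ratios. Jun in NeuroD2 over GFP, which was not past 2-fold, went from -0.04 to 0.11 with total gene counts. A pseudocount of 2 CPM lowered Egr1 in MyoD over GFP from 3.80 to 3.46 and Fos from 1.42 to 0.94. Of the 5 genes most like each of Egr1, Jun and Klf6, at least 4 were shared with the main result under each scaling and pseudocount. In checks added after the data were seen, the call of a difference beyond counting error between neighbours in a gene's order was another for 7 of 70 pairs with DESeq2 size factors and 9 with total gene counts. Egr2, Fos, Fosb and Junb are limited by depth.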
